A study of Anopheles merus and Anopheles coluzzii with 36 samples.

Results

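The 6 genes described here are those whose transcripts were lower in Anopheles merus and higher in Anopheles coluzzii when larvae were held at 50% of the salinity of seawater, each against larvae of its own species in fresh water. They were chosen by their measured values, from the 10905 genes of the table. A gene was taken if its mean was at least 5 CPM (reads of a gene scaled to a common library size) over all 36 libraries, its level at 50% was at most 0.5 times its level at 0% in An. merus, and its level at 50% was at least 2-fold its level at 0% in An. coluzzii. Folds were taken as differences of log2(group mean CPM + 0.5). AGAP004980, which also met these conditions, was left out by the rule. The members are AGAP002825, AGAP005979, AGAP009869, AGAP012228, AGAP013668 and AGAP028235.

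The libraries came from whole larvae of both species that had grown in fresh water. At 18 h after hatching they were moved for 6 h into 0, 10, 20, 30, 40 or 50% seawater. Each library was a pool of 35 to 50 larvae, and each of the 12 groups of species and salinity had 3 libraries, named here by the replicate letter of the labels. The labels name no strain and do not say whether pools of a group came from separate broods, so p-values measure only the spread between pools. In RNA from whole larvae, fewer cells of a type and less RNA per cell cannot be told apart.

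An. merus is a salt-water mosquito whose larvae live in coastal and inland saline pools, and An. coluzzii is a close relative that breeds in fresh water. Both belong to the Anopheles gambiae complex. A mosquito larva in dilute water gains water and loses ions across its body surface, and in saline water the reverse. It balances this mainly through the Malpighian tubules, which secrete the primary urine, and the rectum, which takes ions back from it or adds ions to it before it is voided. The deposited table pairs the identifiers with no gene names, and a RefSeq table of An. merus matched 0 of them. The 6 genes are therefore given by identifier, and no role is assigned to any of them.

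The 18 An. merus libraries held 9174563 to 24092192 counted reads and the 18 An. coluzzii libraries 15369828 to 24835904. A count of 0, which allows up to 3 reads, corresponds to 0.114 to 0.348 CPM in An. merus and 0.119 to 0.217 CPM in An. coluzzii. All 36 pairs of replicates differed by more than counting noise, with a mean chi-square per gene of 6.85 to 75.3. The values are CPM scaled by the authors with TMM (trimmed mean of M values), so a change is relative to the bulk of genes. Mapping rates of the species were not analysed here, which limits comparisons of level between them.

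**Figure D1:**
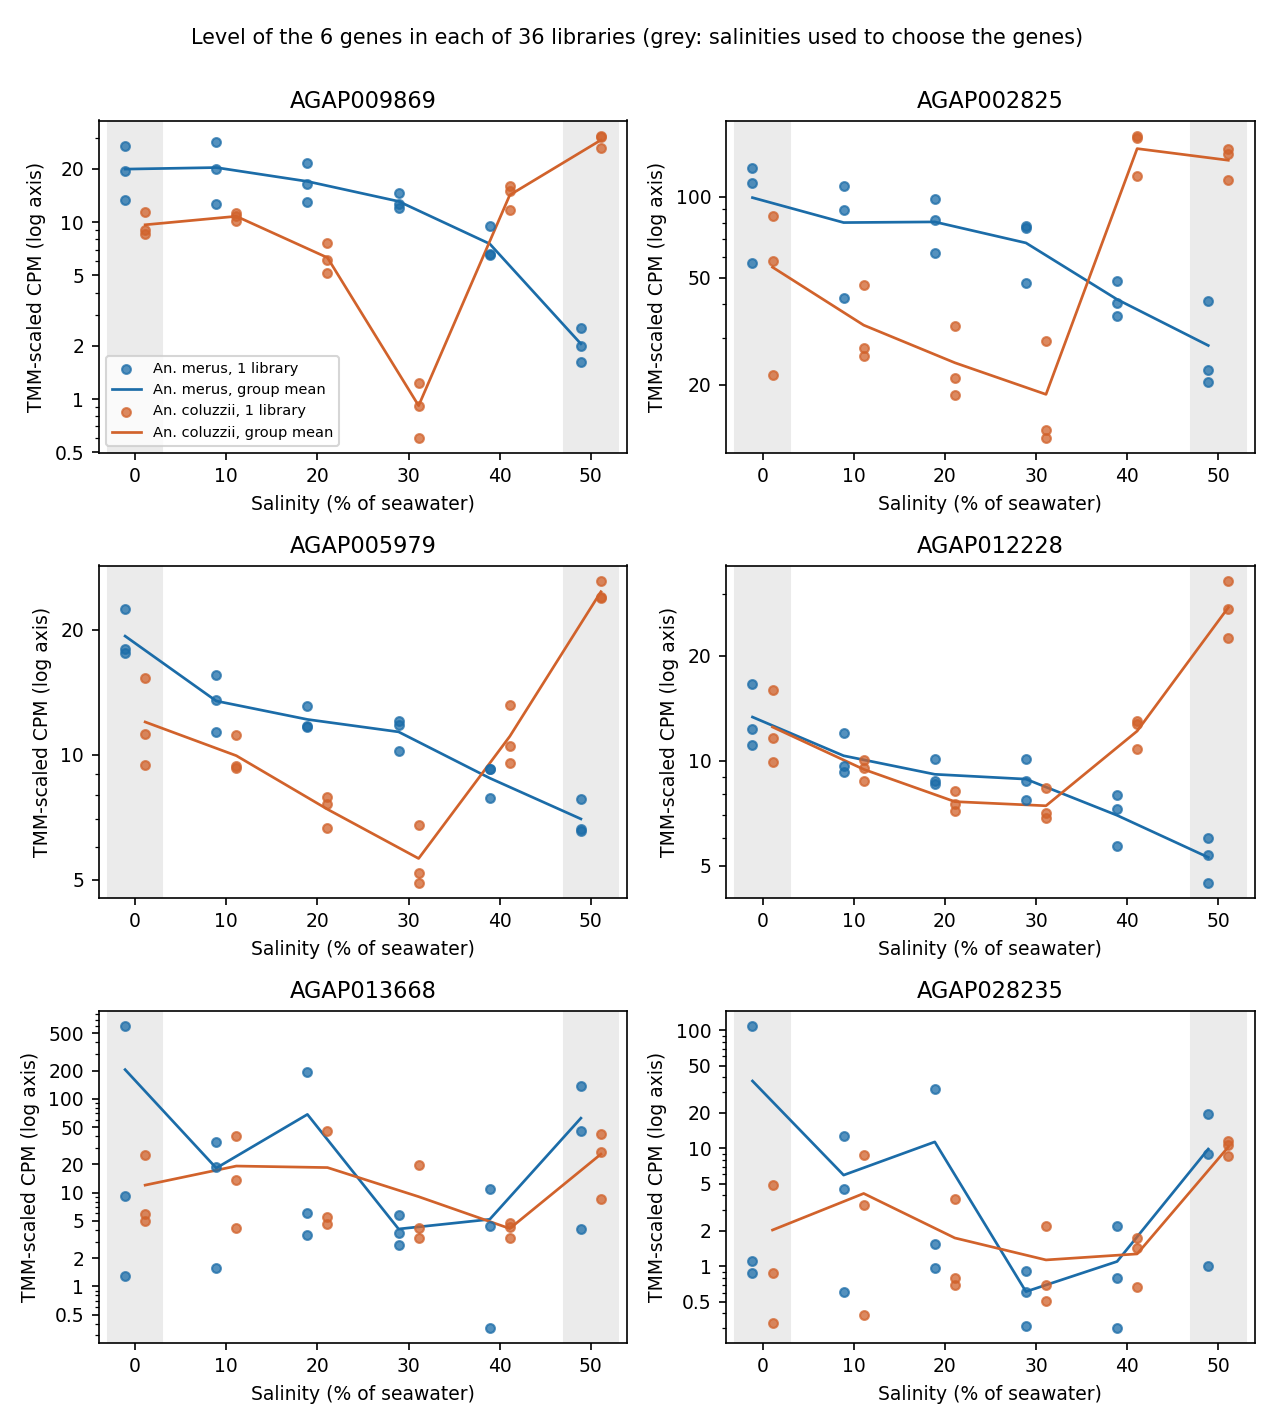
Level of each of the 6 genes in TMM-scaled CPM (log axis) against salinity in percent of seawater, for An. merus (blue) and An. coluzzii (orange); points are libraries, lines join the means of 3 libraries, and grey marks the salinities that chose the genes. In AGAP009869, AGAP002825, AGAP005979 and AGAP012228 the An. coluzzii line is lowest at 30% and the species cross between 30 and 40%, while in AGAP013668 and AGAP028235 single An. merus libraries stand far above the rest.

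The changes that chose the genes are given as a description. AGAP009869 had the lowest value at 50% relative to 0% in An. merus, with 27.0, 13.4 and 19.4 CPM at 0% and 2.0, 1.62 and 2.53 CPM at 50%, a difference of -3.0 on the log2 scale. In An. coluzzii the same gene measured 11.4, 9.04 and 8.60 CPM at 0% and 30.3, 30.9 and 26.3 CPM at 50%, a difference of 1.54. Its groups did not overlap in either species.

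AGAP002825 measured 113, 56.8 and 128 CPM at 0% and 22.7, 40.9 and 20.6 CPM at 50% in An. merus, a log2 difference of -1.81. In An. coluzzii it measured 57.8, 21.7 and 84.8 CPM at 0% and 145, 116 and 150.2 CPM at 50%, a log2 difference of 1.31. The fresh-water pools of both species were thus spread widely, with the lowest far below the other two, but stayed on their side of the 50% pools. Without An. coluzzii replicate B at 0% the difference in that species was 0.94, under the 2-fold of the rule.

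AGAP005979 measured 22.4, 18.0 and 17.6 CPM at 0% and 6.54, 7.85 and 6.64 CPM at 50% in An. merus. In An. coluzzii it measured 15.3, 11.3 and 9.46 CPM at 0% and 26.3, 23.8 and 24 CPM at 50%. The log2 differences were -1.40 and 1.01, the latter just inside the rule and outside it without An. coluzzii replicate B or D at 0% or replicate A at 50% (0.87 to 0.97).

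AGAP012228 measured 16.6, 12.3 and 11.1 CPM at 0% and 5.36, 4.46 and 6.01 CPM at 50% in An. merus. In An. coluzzii it measured 16.0, 11.6 and 9.93 CPM at 0% and 32.9, 22.5 and 27.2 CPM at 50%. The log2 differences were -1.26 and 1.11, and the latter was 0.97 and 0.96 without An. coluzzii replicate D at 0% or A at 50%. The fresh-water levels of the species overlapped.

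For the other two members the group means hid a single library. AGAP013668 measured 606, 9.29 and 1.3 CPM at 0% and 4.12, 137 and 45.7 CPM at 50% in An. merus, so the groups overlapped and the log2 difference of the means, -1.71, rested on replicate A at 0%. Without that library the difference was 3.44, in the opposite direction, and without any other it was -3.02 to -1.16. In An. coluzzii it measured 25.2, 4.94 and 5.93 CPM at 0% and 8.48, 41.9 and 27.0 CPM at 50%, again with overlap, for a log2 difference of 1.07. That difference was 2.15 without replicate A at 0%, and 0.71, 0.76 and 0.54, all outside the rule, without replicate B or D at 0% or replicate B at 50%.

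AGAP028235 measured 109.5, 0.872 and 1.11 CPM at 0% and 1.0, 19.5 and 9.02 CPM at 50% in An. merus, a log2 difference of -1.86 that became 2.80 without replicate A at 0%. In An. coluzzii it measured 4.89, 0.330 and 0.870 CPM at 0% and 8.61, 11.5 and 10.7 CPM at 50%, a log2 difference of 2.09 with no overlap. Without replicate A at 0% it was 3.29, and without any other it was 1.67 to 2.20. Its higher level at 50% than at 0% in An. coluzzii was thus seen in all 3 pools, and its lower level in An. merus was a property of the mean alone.

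Over the 8758 genes at a mean of at least 5 CPM, 12.4% were at least 2-fold lower at 50% in An. merus and 8.67% at least 2-fold higher at 50% in An. coluzzii. All 3 An. merus pools at 50% were below all 3 at 0% for 4 of the 6 members, against 37.6% of those genes, and all 3 An. coluzzii pools at 50% were above all 3 at 0% for 5 of the 6, against 31.8%. These shares belong to the contrasts that chose the members, and nothing is read from them. Genes that moved together were more numerous, with 241 at least 2-fold higher and 296 at least 2-fold lower at 50% in both species. The reverse of the present pattern, higher in An. merus and lower in An. coluzzii, was met by 70 genes.

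**Figure D2:**
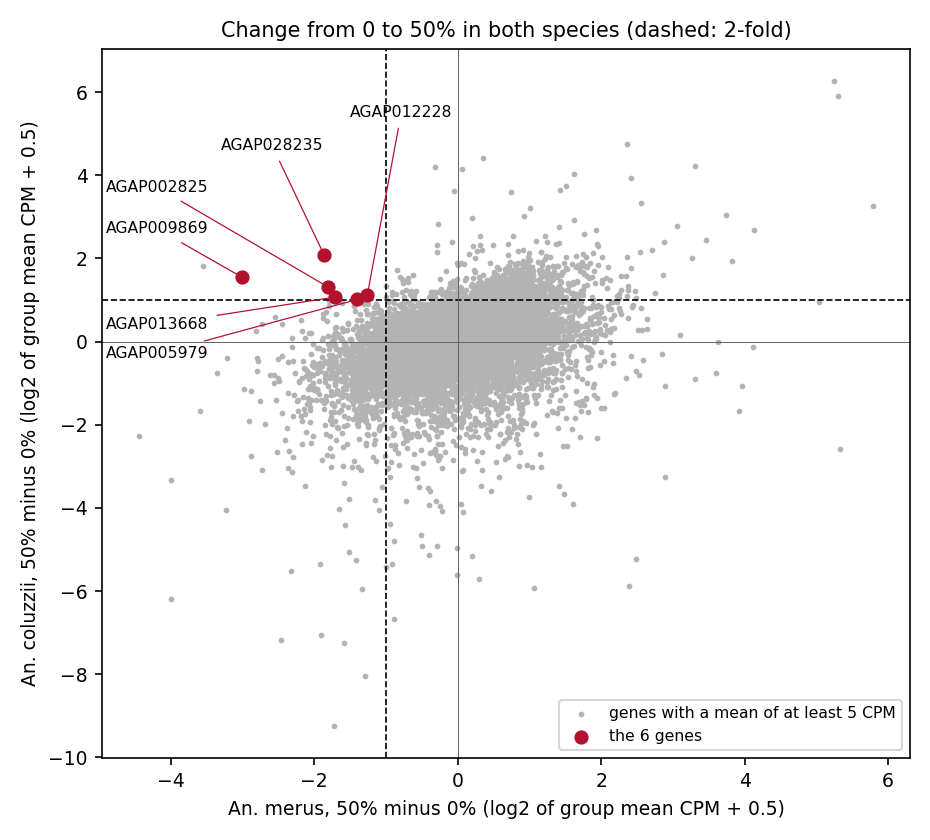
Difference of log2(group mean CPM + 0.5) between 50 and 0% in An. merus (x axis) and An. coluzzii (y axis) for the 8758 genes with a mean of at least 5 CPM (grey) and the 6 members (red); dashed lines mark 2-fold. The members lie at the sparse upper left edge, from -3.0 to -1.26 in An. merus and from 1.01 to 2.09 in An. coluzzii.

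Several genes fell short by little. AGAP001276 and AGAP008604 had log2 differences of -0.996 and -0.994 in An. merus, just outside, where AGAP012228 and AGAP005979 were the members nearest the threshold. AGAP012851 and AGAP012757 had 0.974 and 0.966 in An. coluzzii, just outside, where AGAP005979 and AGAP013668 were just inside. AGAP006400 and AGAP000650 passed both folds at a mean of 4.04 and 3.70 CPM, 2 of 8 genes that missed only the level. The members of lowest mean were AGAP028235, at 7.22 CPM, and AGAP012228, at 10.9 CPM. The mean of AGAP028235 rested on An. merus replicate A at 0%, at 109.5 CPM, and without that library it was under the 5 CPM of the rule.

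Whether the opposite course was graded over salinity was asked in the 24 libraries at 10, 20, 30 and 40%, which had no part in the folds that chose the genes. Log2(CPM + 0.5) was fitted for all 10905 genes with limma over these 8 groups, and p-values were adjusted by Benjamini-Hochberg within each of 9 comparisons, with a threshold of 0.05. All 6 members were tested. Changes below are differences of mean log2 values with their SE.

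In An. coluzzii 4 members fell between 10 and 30% and rose again between 30 and 40%. AGAP009869 measured 11.3, 10.8 and 10.2 CPM at 10%, 5.19, 7.62 and 6.09 CPM at 20%, 0.604, 0.916 and 1.23 CPM at 30% and 11.7, 15.1 and 16.1 CPM at 40%. No neighbouring groups overlapped along this course, and the 30% libraries held 14 to 20 reads of the gene. It fell by 3.02 ± 0.23 from 10 to 30% (SE; limma adjusted p = 7.4e-09) and rose by 3.39 ± 0.23 from 30 to 40% (SE; limma adjusted p = 5.5e-10), so that at 40% it stood 0.37 ± 0.23 above 10% (SE; limma adjusted p = 0.16).

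AGAP002825 in An. coluzzii measured 25.7, 27.5 and 46.9 CPM at 10%, 18.3, 21.2 and 33.0 CPM at 20%, 12.7, 13.6 and 29.1 CPM at 30%, and 119, 169 and 165 CPM at 40%. The first 3 groups overlapped, and all pools at 40% lay far above them. It fell by 0.89 ± 0.34 from 10 to 30% (SE; limma adjusted p = 0.035) and rose by 3.09 ± 0.34 from 30 to 40% (SE; limma adjusted p = 3.4e-07). At 40% it was 2.20 ± 0.34 above 10% (SE; limma adjusted p = 8.8e-06). The 40 and 50% pools overlapped, with means of 151 ± 27.5 and 137 ± 18.5 CPM (SD, n = 3), so in this gene the higher level was already present at 40%.

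AGAP005979 in An. coluzzii measured 9.32, 11.2 and 9.39 CPM at 10%, 7.61, 7.93 and 6.65 CPM at 20%, 4.92, 6.78 and 5.19 CPM at 30% and 9.56, 10.5 and 13.2 CPM at 40%. It fell by 0.78 ± 0.14 (SE; limma adjusted p = 9.4e-05) and then rose by 0.92 ± 0.14 (SE; limma adjusted p = 1.7e-05). The 20 and 30% pools overlapped, as did those at 40 and 10%, the latter with a difference of 0.14 ± 0.14 (SE; limma adjusted p = 0.37), and its 50% pools lay above all of those.

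AGAP012228 in An. coluzzii had the shallowest course, with 8.73, 9.54 and 10.1 CPM at 10%, 8.20, 7.19 and 7.5 CPM at 20%, 8.33, 6.87 and 7.07 CPM at 30% and 10.8, 13.0 and 12.7 CPM at 40%. The 20 and 30% pools overlapped, and those at 40% lay above both. It fell by 0.33 ± 0.13 (SE; limma adjusted p = 0.042) and rose by 0.68 ± 0.13 (SE; limma adjusted p = 3e-04), and at 40% it was 0.35 ± 0.13 above 10% (SE; limma adjusted p = 0.025). That last call was lost without An. coluzzii replicate A at 10% or replicate C or D at 40%.

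Read against all genes, 26.5% were called lower at 30 than at 10% in An. coluzzii (4 of 6 members), 21.9% were called higher at 40 than at 30% (4 of 6) and 31.9% higher at 40 than at 10% (2 of 6). A fall followed by a rise was called for 4.48% of all genes (488 of 10905). Both steps use the same 30% libraries, so they are not independent of each other. From 10 to 30% AGAP013668 (-0.96 ± 1.27 SE) and AGAP028235 (-1.09 ± 0.98 SE) were not called. Over all 6 members, these 2 included, the median was -0.92 from 10 to 30% and 0.80 from 30 to 40%, beside -0.001 and 0.001 over all genes. The former was -0.51 without An. coluzzii replicate B at 10%, -1.28 without replicate C at 10% and -1.39 without replicate C at 30%, and the latter was 0.72 to 0.89 without single libraries. The first step was the weaker part. The fall of AGAP012228 lost its call without An. coluzzii replicate B or C at 10% or replicate B or C at 30%, and that of AGAP002825 without replicate C at 10% or replicate A or B at 30%, so the 4 genes with both calls became 2 without replicate C at 10% or B at 30%. Without TMM, with library totals as the scaling, the median of all genes was -0.15 for 30 against 10%, -0.12 for 40 against 30% and -0.30 for 40 against 10%. The 4 falls and 4 rises kept their calls under it, and the higher level of AGAP012228 at 40 than at 10% did not (0.07 ± 0.13 SE, limma adjusted p = 0.66).

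In An. merus the same 4 genes had lower means with each step from 20% upward and no dip. AGAP009869 measured 19.9, 12.7 and 28.6 CPM at 10%, 16.4, 13.0 and 21.6 CPM at 20%, 14.6, 12.1 and 12.7 CPM at 30% and 9.51, 6.61 and 6.52 CPM at 40%. The pools at 10 to 30% overlapped, and those at 40% lay below them all. It fell by 1.32 ± 0.23 from 10 to 40% (SE; limma adjusted p = 0.00031), and then stood at a mean of 2.05 ± 0.456 CPM at 50% (SD, n = 3).

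AGAP005979 in An. merus measured 13.5, 11.3 and 15.6 CPM at 10%, 11.7, 11.7 and 13.1 CPM at 20%, 10.2, 12.1 and 11.8 CPM at 30% and 9.25, 7.89 and 9.24 CPM at 40%. It fell by 0.58 ± 0.14 from 10 to 40% (SE; limma adjusted p = 0.0036), with all pools at 40% below the rest. Its fresh-water pools, at 17.6 to 22.4 CPM, were above all those at 10%.

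AGAP012228 in An. merus measured 9.28, 9.68 and 12 CPM at 10%, 8.76, 8.56 and 10.1 CPM at 20%, 8.73, 10.1 and 7.69 CPM at 30% and 7.98, 7.25 and 5.68 CPM at 40%. It fell by 0.54 ± 0.13 from 10 to 40% (SE; limma adjusted p = 0.0046). The 30 and 40% pools overlapped.

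AGAP002825 in An. merus measured 109.5, 42.2 and 89.1 CPM at 10%, 61.6, 82.0 and 98.6 CPM at 20%, 78.1, 47.7 and 76.4 CPM at 30% and 40.3, 48.5 and 35.9 CPM at 40%. Replicate B was low at 10% and lay within the range at 40%. The change from 10 to 40% was -0.84 ± 0.34 and did not pass the threshold (SE; limma adjusted p = 0.076, and 0.0099 to 0.31 over the alternatives). It passed without that library, without An. coluzzii replicate C at 30%, with edgeR and with the replicate letter as a block.

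Over all genes 13.5% were called lower at 40 than at 10% in An. merus, and 3 of the 6 members were. Under the main settings these calls were reached over the whole range only. From 10 to 30%, where 1.78% of genes were called lower and 0.862% higher, 0 of 6 members were called by limma, 0 by edgeR and 0 by DESeq2, and 1 had an unadjusted p under 0.05. From 30 to 40%, where 1.93% were called lower and 1.66% higher, limma and edgeR called 0 of 6 and DESeq2 called 1, AGAP009869, with 3 members at an unadjusted p under 0.05. AGAP009869 was also called by limma without An. merus replicate B or C at 10% or replicate A at 40%. The most negative values were those of AGAP013668 (-1.63 ± 1.27 SE) and AGAP028235 (-1.57 ± 0.98 SE), neither of them called. Over all 6 members, these 2 included, the median was -1.08 from 10 to 40%, beside -0.01 over all genes. It was -0.68 without An. merus replicate A at 10% or replicate C at 40%, and -1.43 without replicate B at 10%. A fall in An. merus by 40% together with the fall and rise in An. coluzzii was called for AGAP005979, AGAP009869 and AGAP012228, and for 2.32% of all genes. The combination was common among genes with that An. coluzzii course. Of the 488 such genes, 253 were called lower in An. merus at 40 than at 10%, 232 were not called and 3 were called higher.

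**Figure D3:**
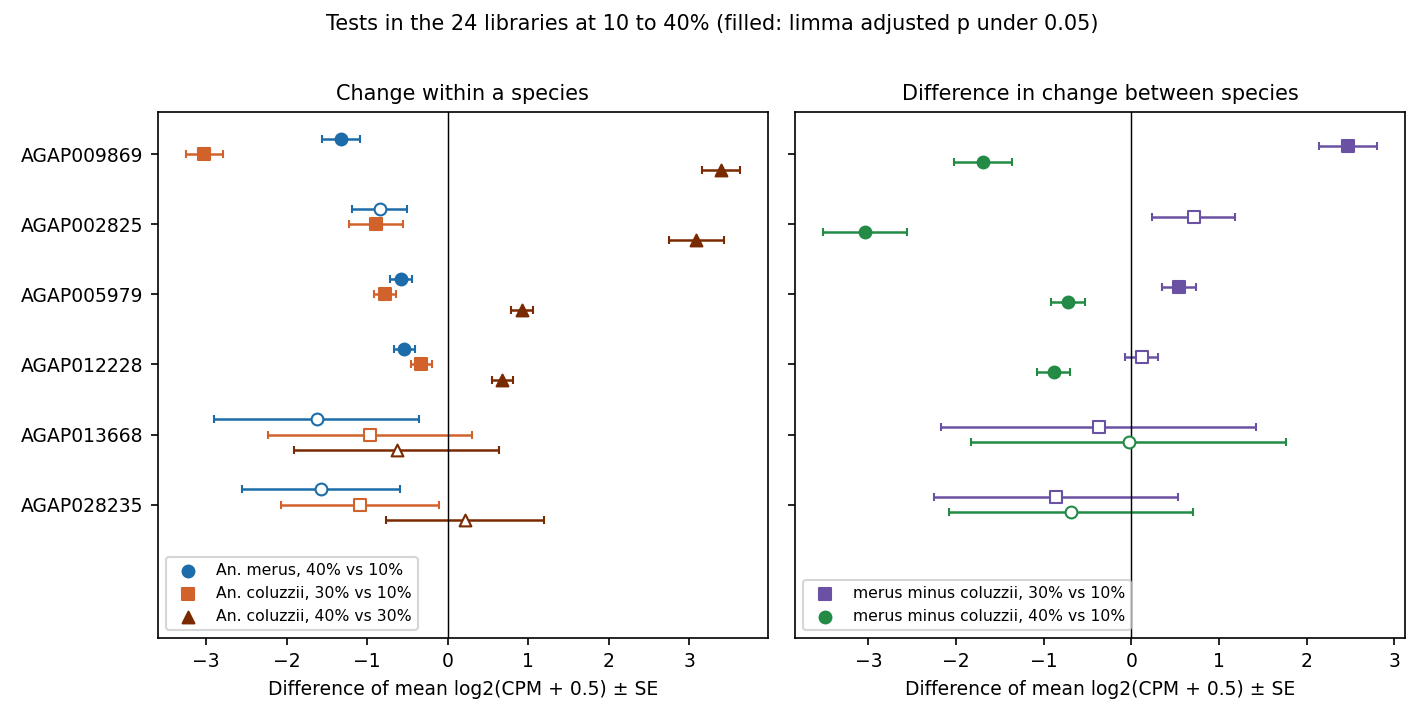
Differences of mean log2(CPM + 0.5) with SE for the 6 members in the 24 libraries at 10 to 40%, within each species (left) and between the changes of the species (right); filled symbols passed a limma adjusted p of 0.05 and open ones did not. The difference between species in the change from 10 to 40% was negative and called in AGAP009869, AGAP002825, AGAP005979 and AGAP012228, and the error bars of AGAP013668 and AGAP028235 are the widest.

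The difference between the species in these changes was tested as an interaction, An. merus minus An. coluzzii. From 10 to 40% it was -3.04 ± 0.48 in AGAP002825 (SE; limma adjusted p = 3.3e-05), -1.70 ± 0.33 in AGAP009869 (SE; limma adjusted p = 0.00031), -0.89 ± 0.19 in AGAP012228 (SE; limma adjusted p = 0.00058) and -0.72 ± 0.19 in AGAP005979 (SE; limma adjusted p = 0.0044). These 4 of 6 stand beside 23.3% of all genes called in that direction. With library totals as the scaling, under which the median of all genes was 0.26, AGAP005979 lost its call (-0.44 ± 0.22 SE, limma adjusted p = 0.11) and the other 3 kept theirs.

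From 10 to 30% the interaction was called in 2 members, both with the opposite sign. It was 2.47 ± 0.33 in AGAP009869 (SE; limma adjusted p = 4.1e-05), the gene having fallen by far more in An. coluzzii by that salinity. In AGAP005979 it was 0.55 ± 0.19 (SE; limma adjusted p = 0.047), a call that 17 of the 24 fits without a single library lost, with adjusted p-values of 0.015 to 0.13 over all alternatives. These 2 of 6 stand beside 12.4% of all genes called in that direction. AGAP002825 gave 0.71 ± 0.48 (SE; limma adjusted p = 0.31) and AGAP012228 0.12 ± 0.19 (SE; limma adjusted p = 0.70), and the values of AGAP013668 and AGAP028235 were -0.37 and -0.86, not called.

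In AGAP009869, AGAP002825, AGAP005979 and AGAP012228 the group means of the species changed order between 30 and 40%. AGAP009869 had a mean 14.3-fold higher in An. merus than in An. coluzzii at 30%, 13.1 ± 1.29 against 0.918 ± 0.314 CPM, and 0.53 times that in An. coluzzii at 40%, 7.55 ± 1.70 against 14.3 ± 2.31 CPM (SD, n = 3). AGAP002825 went from 3.65-fold higher at 30% to 0.275 times at 40%, AGAP005979 from 2.02-fold to 0.793 times, and AGAP012228 from 1.19-fold, with overlapping pools, to 0.573 times. At 40% all An. merus pools lay below all An. coluzzii pools for these 4 of 6 members, against 36.3% of the 8758 genes at a mean of at least 5 CPM. With library totals as the scaling the pools at 40% overlapped in AGAP005979, with a ratio of 0.954, and in AGAP009869, with a ratio of 0.636. In AGAP009869 the highest An. merus pool and the lowest An. coluzzii pool were both at 10.1 CPM. In the other 2, AGAP002825 and AGAP012228, they stayed apart, with ratios of 0.328 and 0.686.

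Averaged over 10 to 40%, 3 of the 6 members were higher in An. merus, beside 37.0% of all genes, and 0 were lower, beside 40.1%. AGAP009869 was higher by 1.14 ± 0.12 (SE; limma adjusted p = 1.5e-08), AGAP002825 by 0.75 ± 0.17 (SE; limma adjusted p = 0.00042) and AGAP005979 by 0.44 ± 0.07 (SE; limma adjusted p = 6.6e-06). For AGAP012228 the difference was -0.04 ± 0.07 (SE; limma adjusted p = 0.56). These averages run over salinities at which the order of the species differed.

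AGAP013668 and AGAP028235 passed in none of the 9 comparisons at 10 to 40%, under the main settings or any alternative run. For AGAP013668 the change from 10 to 40% was -1.63 ± 1.27 in An. merus (SE; limma adjusted p = 0.39) and -1.59 ± 1.27 in An. coluzzii (SE; limma adjusted p = 0.27). Its An. merus pools were 34.7, 1.58 and 18.6 CPM at 10%, 6.14, 195 and 3.57 CPM at 20%, 2.79, 5.77 and 3.73 CPM at 30%, and 10.8, 4.37 and 0.362 CPM at 40%. Pools of 1 group thus differed by up to 54.8-fold in these middle salinities.

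The same An. merus libraries were high in both of these genes. AGAP028235 in An. merus measured 12.6, 0.609 and 4.53 CPM at 10%, 1.54, 31.5 and 0.967 CPM at 20%, 0.914, 0.607 and 0.311 CPM at 30%, and 2.20, 0.799 and 0.302 CPM at 40%. Among the 18 An. merus libraries, the 7 highest for AGAP013668 were also the 7 highest for AGAP028235, led in both by replicate A at 0%, replicate B at 20% and replicate B at 50%. Among the 18 An. coluzzii libraries, 6 of the 7 highest were shared. The highest of these for AGAP013668, replicate A at 20% with 45.4 CPM, had 3.72 CPM of AGAP028235 and ranked 6 for it.

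The ratio of AGAP013668 to AGAP028235 reads was not constant. In the 19 libraries with at least 20 reads of each it ran from 0.985 to 12.2. It was 5.53, 6.2 and 7.02 in the 3 highest An. merus libraries and 0.985, 3.65 and 2.52 in An. coluzzii at 50%. Whether reads were shared between these genes was not tested.

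**Figure D4:**
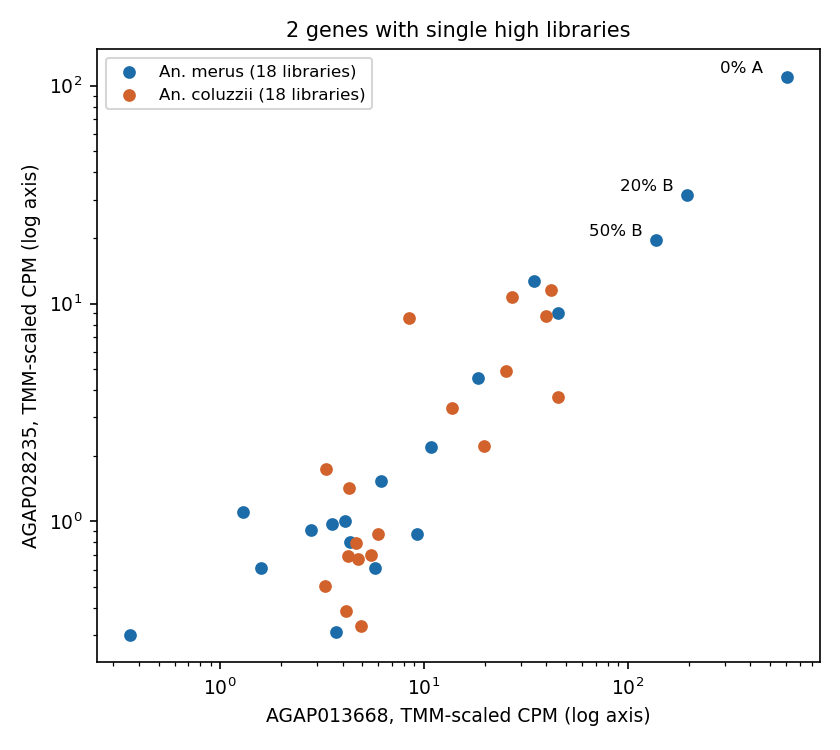
AGAP028235 against AGAP013668 in TMM-scaled CPM (log axes), 1 point per library, for An. merus (blue) and An. coluzzii (orange), with the 3 highest An. merus libraries labelled by salinity and replicate. In An. merus the libraries high in either gene were high in both, up to 606 and 109.5 CPM in replicate A at 0%, and in An. coluzzii this held less closely.

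Such jumps were rare in the table as a whole. Replicate A of An. merus at 0% was at least 10-fold above both other pools of its group, on the CPM + 0.5 scale, for 5 of the 8758 genes, and over all 36 libraries this number ran from 0 to 5. Among the members, AGAP013668 and AGAP028235 were of this kind in An. merus at 0 and 20%. In An. coluzzii, AGAP028235 was more even at 50%, where it measured 10.3 ± 1.48 CPM after 1.27 ± 0.543 CPM at 40% (SD, n = 3), with no overlap between these groups. At 10% it measured 3.30, 8.73 and 0.389 CPM, so replicate B there was above the 50% pool at 8.61 CPM. AGAP013668 in An. coluzzii also had high single pools at low salinity, with 39.8 CPM in replicate B at 10% and 45.4 CPM in replicate A at 20%.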

How the data were processed

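Poly(A) RNA was sequenced from TruSeq libraries, per the labels' protocols. The tools named per the submitters' processing notes are TopHat2, Bowtie2, Trimmomatic, HTSeq and edgeR, with no version, genome build or annotation given in the sources used here. The authors' deposited table gives 1 normalized expression signal per gene and library, CPM with TMM scaling, with low genes and ribosomal RNA removed, per its title. TMM scaling rests on most genes being unchanged. From 10 to 40% in An. coluzzii, limma called 7324 of the 10905 genes, so most genes were called in that comparison and the assumption is in doubt there. Each deposited value was a whole multiple of 1 read's worth, within 0.001 (relative to the read number above 1000 reads), for 100% of values in all libraries, and the multiples were used as whole reads. The column of An. coluzzii replicate C at 50% is named for 1 of 5 lane parts.

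Members were found by the rule given in the report. They and the tests were chosen with earlier results of these data known. No further filter on low values was applied. Comparisons used limma 3.58.1 in R 4.3.3 (trended empirical Bayes, two-sided, unpaired) on the 24 libraries at 10 to 40%. The fit was also run on simulated reads, with changes in An. merus at 40% only and scaling by library totals. That setting is unlike these data, so the run checks the code and not the calls given here. Genes named are the 6 members and the nearest genes outside each threshold. Alternatives were pseudocounts of 0.1 and 2, a mean of at least 5 CPM, library totals, quantile normalization, a replicate block by letter, each species alone, all 36 libraries, edgeR 4.0.16 and DESeq2 1.42.0 on the reads, and each library left out. On the reads edgeR called 2637 genes for An. merus and 7346 for An. coluzzii from 10 to 40%, beside 2662 and 7324 with limma. The floor of 3 reads covers counting error only, and each SE or SD the spread between pools.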

Additional observations from a re-analysis of the deposited data

Results flagged for a closer look

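The change from 10 to 40% differed between the species, by the interaction in limma (An. merus minus An. coluzzii, log2 scale), for AGAP002825 (-3.04), AGAP009869 (-1.70), AGAP012228 (-0.89) and AGAP005979 (-0.72). The change from 10 to 30% differed in the other direction for AGAP009869 (2.47) and AGAP005979 (0.55). No cause was tested. With 3 libraries in a group, no gap test for outlying libraries was run. The report gives the counts of genes at least 10-fold above both other pools.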

How the results depend on the processing

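Of 25 pairs of gene and comparison called in any fit, direction held in every alternative except for AGAP005979 from 10 to 40% in An. coluzzii, which was not called (0.14) and became -0.14 with library totals and -0.019 under the replicate block, and was called with quantile normalization. The number of members called from 30 to 40% in An. merus was 0, and 1 with DESeq2 and under the replicate block, and 0 to 1 without single libraries. In An. coluzzii the number called from 10 to 30% was 4, and 3 with quantile normalization and under the replicate block, 2 with all 36 libraries, and 2 to 4 without single libraries. From 10 to 40% it was 2, and 1 with library totals, under the replicate block and with all 36 libraries, 3 with quantile normalization, and 1 to 2 without single libraries. Members with both a fall and a rise in An. coluzzii numbered 4, and 2 with all 36 libraries, 3 under the replicate block and with quantile normalization, and 2 to 4 without single libraries. The interaction from 10 to 30% was called for 2, and for 1 with a pseudocount of 2, quantile normalization or all 36 libraries, and 1 to 2 without single libraries. The cause of these changes was not tested.

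The rule found 14 genes at a mean of at least 1 CPM, 2 at 20 CPM, 112 at 1.5-fold and 0 at 4-fold. With library totals it found 4, losing AGAP005979, AGAP012228 and AGAP013668. With a pseudocount of 2 it found 4, losing AGAP005979 and AGAP013668, with 0.1 it found 8, and with means of log2 values 6, losing AGAP013668 and AGAP028235. It found 3 to 17 without single libraries at 0 or 50%, with 3 without An. coluzzii replicate B at 0% and 17 without A. Same-letter libraries of a species did not all deviate together. Their correlations were -0.31 to 0.58 in An. merus (median 0.10, with -0.02 for different letters) and from -0.22 to 0.58 in An. coluzzii (median 0.17, with -0.02), and 12 of 24 libraries were nearest to their own letter. Over 0.1 were 10 of 18 same-letter pairs in An. merus, beside 11 of 36 with different letters, and 8 of 15 in An. coluzzii, beside 12 of 39. Libraries of 1 letter were thus more alike in part. The main fit is unpaired, and the letter as a block is given among the alternatives. Among the fitted An. coluzzii libraries letter D occurred only at 40%, so the block in effect left that library out. Changes under the block are therefore not those of pairing alone. With the filter at 5 CPM, AGAP028235 was not tested. Depth limits AGAP009869 in An. coluzzii at 30% (53 reads in 3 libraries) and AGAP028235 (4 reads in its lowest library).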
